A study of Sus scrofa with 27 samples.

Results

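Glucocorticoid handling and response genes were examined in mural granulosa cells (GCs) of sows as a named set of 10 genes. The set holds the enzymes HSD11B1 and HSD11B2, the receptors NR3C1 and NR3C2, and 6 genes that glucocorticoids are widely known to induce, FKBP5, TSC22D3, ZBTB16, SGK1, KLF9 and DUSP1. They were picked by name, and their RES against FF values and their correlations with HSD11B1 were known when the set was drawn up. These values are therefore given as a description. No p-value is printed for them, and where a gene is said to be called, this states its side of the threshold in a fit of all genes and is no evidence on genes chosen this way. All 10 were found among the 35670 identifiers counted, and all 10 reached the mean count of 5 that left 11385 named genes for testing.

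Mural GCs form the layer of granulosa cells against the follicle wall. They were cut by laser capture microdissection from the largest healthy follicle of each sow, with a separate RNA-seq library for every animal. Over the final 2 weeks of lactation, 13 full-fed (FF) sows were offered 6.5 kg daily and 14 feed-restricted (RES) sows 3.25 kg. All were wild-type Large White × Norwegian Landrace crosses in which ovaries were taken on day 2 post-weaning, after both groups had been fed alike since weaning. Within each diet the study sequenced only part of its sows. It took those with the least body weight loss in FF and the most in RES. The study also reports that the largest healthy follicle was smaller in RES. The contrast thus joins diet, weight loss and follicle size, which cannot be told apart here. The p-values describe the spread between such sows. No cortisol or other hormone value was analysed here.

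Cortisol acts inside a cell through receptors that bind DNA once the hormone is bound. HSD11B1 makes active cortisol from inactive cortisone, HSD11B2 runs the reverse step, and the balance between them sets how much active hormone a cell sees. In the follicle, GCs are known to change from HSD11B2 towards HSD11B1 around ovulation, and the glucocorticoid receptor NR3C1 is present in them throughout. The mineralocorticoid receptor NR3C2 binds cortisol as well, and FKBP5, a co-chaperone, is induced by the receptor and lowers its affinity for the hormone.

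FF libraries held a median of 13490513 counts (range 12299220 to 16021200) and RES libraries a median of 15232600 (range 12942198 to 18120922). Normalized counts are counts divided by DESeq2 size factors. Differences are log2 fold changes, RES minus FF, from edgeR's quasi-likelihood fit of all 11385 genes, given with the standard error (SE), and a gene was called at a Benjamini-Hochberg adjusted p under 0.05. The fit called 1609 of the 11385 genes, or 14.1%, with 666 lower in RES (5.85%) and 943 higher (8.28%), and the median log2 fold change over all genes was −0.02. The libraries also fall into an upper quality group of 7 FF and 7 RES sows and a lower one of 6 FF and 7 RES sows, by a gap in the share of high-quality bases in the study's read statistics. FF sow 10 stood apart from the other FF sows, with the highest normalized count of its group for 20.5% of all tested genes and the lowest for 27.6%. The sample records and the study's RNA quality list name different FF sows as the one with the poorest RNA, so it is uncertain whether the quality entry of FF sow 10 belongs to its library.

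GC markers were present in every library. The 8 GC markers with an identifier, among them INHA, INHBA, FST and VCAN, summed to 71149 to 121913 normalized counts in FF and 76754 to 146826 in RES, and 0 of 8 were called. Of all genes, 5.85% were called lower, beside which the counts for other cell types stand. RNA of neighbouring cells was present too. The 6 stroma markers summed to 13128 to 37246 in FF and 10645 to 34383 in RES (0 of 6 called). The 6 pericyte and smooth muscle markers summed to 2800 to 8110 and 1886 to 7863 (2 of 6 called lower in RES, RGS5 and PDGFRB). The 5 theca markers summed to 1258 to 4421 and 795 to 4123 (0 of 5 called by edgeR, 1 by DESeq2, CYP17A1). The 8 endothelial markers summed to 850 to 1535 and 571 to 1799. Of these, 3 of the 7 tested were called lower in RES, CLDN5, ESAM and CDH5, and DESeq2 also called TEK. The 7 immune markers summed to 81.0 to 431 and 49.9 to 342 (0 of the 5 tested called). Of the oocyte markers, GDF9 was found in every library, while BMP15 was at 0 in 11 of 13 FF and 13 of 14 RES sows. RES sow 7 had the highest value of the 14 RES sows for 5 of the 6 pericyte, 4 of the 6 stroma and 4 of the 7 endothelial markers, against 1266 of all 11385 genes. In bulk RNA, fewer cells of a type and less RNA per cell cannot be told apart.

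Of the 10 genes, 3 were called, all lower in RES, beside 14.1% of all genes called, and nothing is read from that share because the genes were chosen with this contrast known. The 3 were HSD11B1 and the receptors NR3C1 and NR3C2. Of the 6 target genes, edgeR called 0, while DESeq2 called KLF9, lower in RES. In edgeR 5 of 6 log2 fold changes were below 0, beside 5996 of all 11385 genes. These signs were not all stable. FKBP5 went from −0.02 to 0.02 with DESeq2 size factors, and ZBTB16 from −0.41 to 0.14 without FF sow 10. Against the FF median, RES sows were mostly higher for TSC22D3 (11 of 14), ZBTB16 (10) and FKBP5 (9). They were mostly lower for KLF9 (12 of 14) and SGK1 (9), and even for DUSP1 (7 each).

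To show the DNA in front of the genes that were lower in RES, the 250 bases before the RefSeq start of HSD11B1, NR3C1 and NR3C2 were read from the pig genome Sscrofa11.1. HSD11B1 (ENSSSCG00000015616) lies on the minus strand of chr9:133231451-133278396, NR3C1 (ENSSSCG00000014401) on the minus strand of chr2:144822937-144956451 and NR3C2 (ENSSSCG00000037766) on the plus strand of chr8:80303172-80669050. The sequences below run 5′ to 3′ on the strand of the gene and end at the base before the start, and capitals mark a half-site of the glucocorticoid response element, AGAACA or its reverse complement TGTTCT. They cover chr9:133278397-133278646, chr2:144956452-144956701 and chr8:80302922-80303171.
HSD11B1: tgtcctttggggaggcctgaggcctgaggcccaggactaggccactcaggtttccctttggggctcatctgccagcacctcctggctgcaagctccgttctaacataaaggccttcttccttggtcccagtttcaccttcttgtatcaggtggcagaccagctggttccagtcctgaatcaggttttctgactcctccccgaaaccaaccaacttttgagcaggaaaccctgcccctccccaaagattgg
NR3C1: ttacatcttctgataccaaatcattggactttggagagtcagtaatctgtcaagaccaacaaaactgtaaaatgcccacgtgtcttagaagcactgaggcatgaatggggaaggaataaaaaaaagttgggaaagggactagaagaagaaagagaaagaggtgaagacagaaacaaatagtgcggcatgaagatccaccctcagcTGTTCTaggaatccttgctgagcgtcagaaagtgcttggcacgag
NR3C2: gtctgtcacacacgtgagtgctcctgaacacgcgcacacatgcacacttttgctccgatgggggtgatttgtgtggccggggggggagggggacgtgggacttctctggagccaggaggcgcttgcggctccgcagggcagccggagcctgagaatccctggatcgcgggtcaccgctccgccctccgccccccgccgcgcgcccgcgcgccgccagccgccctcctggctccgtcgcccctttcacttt
The upstream sequence of NR3C1 holds 1 half-site, and that of HSD11B2 also holds 1, while the other 8 genes have none in the window from 250 bases before to 50 bases after the start. Of 19559 genes with a RefSeq start, 12.1% hold a half-site in such a window. The sequences differ in base composition, with a GC content of 55.6% for HSD11B1, 43.2% for NR3C1 and 70% for NR3C2.

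The complete palindromic element, AGAACA and TGTTCT with any 3 bases between them, was found within 5 kb of the start in 0.102% of genes and in 0 of the 10. A looser form, GNACA and TGTNC with any 3 bases between them, was found within 5 kb of the start in 12.3% of genes and in 1 of the 10, FKBP5. That match lies on the strand of the gene, 1327 bases after the start, and is shown with 20 bases on each side because FKBP5 is the gene of the set that glucocorticoids are best known to induce.
FKBP5, chr7:31549345-31549397, minus strand: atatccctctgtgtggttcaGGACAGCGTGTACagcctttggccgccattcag
Capitals mark the 13 bases of the looser form. Both motifs read the same on either strand apart from the free positions, both strands were searched, and every complete element is also a match of the looser form and holds 2 half-sites. A match is a string of letters and not a measured binding site, and no match says only that these letters are not in this window.

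HSD11B1, the activating enzyme, was lower in RES GCs. Its normalized count ran from 80.0 in FF sow 11 over a median of 94.4 to 127 in FF sow 7, and from 41.9 in RES sow 14 over a median of 70.1 to 79.5 in RES sow 2. Every RES sow thus lay below every FF sow. The means were 97.7 ± 14.8 (SD, n = 13) and 68.1 ± 10.4 (SD, n = 14), and the log2 fold change was −0.56 (SE 0.10), an FF level 1.48 times that of RES.

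Among all 11385 tested genes, HSD11B1 was the single gene whose RES values all lay below its FF values (0.00878%), and it was also the single one on TMM-scaled counts. The separation was narrow. The lowest FF value rests on 84 read pairs and the highest RES value on 73, with exact 95% Poisson intervals of 63.8 to 99.1 and 62.4 to 100 normalized counts that cover counting error only. Scaled by the total of counted read pairs alone (CPM), the groups overlapped, with a lowest FF value of 5.53 and a highest RES value of 5.98. Within the upper quality group the log2 fold change was −0.57 (SE 0.12) and within the lower −0.55 (SE 0.17), and over the 27 fits that each left out 1 library it ran from −0.58 to −0.52 and stayed called. It was not called within the lower quality group, where 1 of all 11385 genes was.

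HSD11B1 had the smallest relative spread of the 10 genes in both groups, a coefficient of variation of 15.2% in each. Counting error alone, from 68 to 127 read pairs per library in FF and 41 to 93 in RES, would give 10.3% and 11.8%. It thus amounts to 46.2% of the variance between sows in FF and 60.9% in RES, the highest shares among the 10 genes, which bears on every correlation with HSD11B1 below. An intron of HSD11B1 holds a gene on the opposite strand, counted as C1orf74, which shares 0 exon bases with it. C1orf74 had a median of 86.7 normalized counts in FF and 84.1 in RES, and its groups overlapped.

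HSD11B2, the inactivating enzyme, was not called. It lies on the plus strand of chr6:28084087-28089256, with normalized counts from 10.1 in FF sow 14 over a median of 31.95 to 58.1 in FF sow 11, and from 6.81 in RES sow 4 over a median of 19.8 to 71.0 in RES sow 3. The ranges overlapped, while the quartiles were 29.1 and 47.2 in FF and 14.8 and 34.0 in RES, with 9 of 14 RES sows below the FF median. The log2 fold change of −0.48 (SE 0.28) was within the spread between sows. It was −0.73 (SE 0.37) within the upper quality group and −0.32 (SE 0.38) within the lower. Over the 27 fits without 1 library it ran from −0.66 to −0.40 and was called in 0.

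The log2 ratio of HSD11B1 to HSD11B2 normalized counts describes the balance of the enzymes' transcripts in each sow, without correction for transcript length. It ran from 0.46 to 3.08 in FF (median 1.5, mean 1.56 ± 0.69 SD) and from −0.10 to 3.44 in RES (median 1.69, mean 1.61 ± 0.96 SD). The ranges overlapped, and the group means lay closer together than the spread within either group. FF sow 14 and RES sow 4, the sows with the least HSD11B2, held the highest ratios. RES sow 3, with the most HSD11B2, was the only sow in which HSD11B2 counts exceeded those of HSD11B1.

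**Figure D1:**
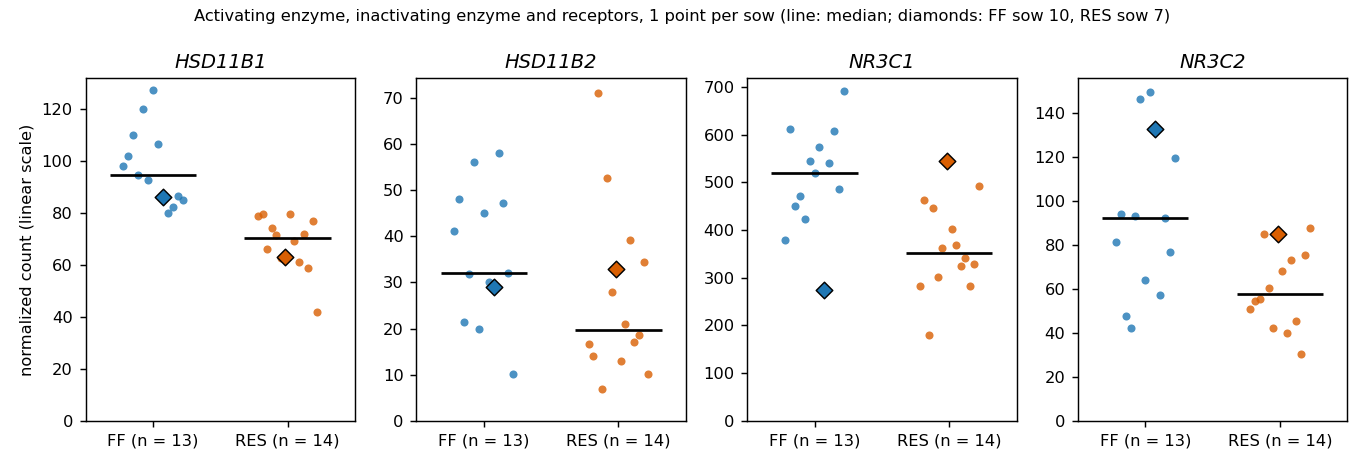
Normalized counts (linear y axes from 0) of the enzymes HSD11B1 and HSD11B2 and the receptors NR3C1 and NR3C2, with 1 point per sow, 13 FF in blue and 14 RES in orange, lines at the medians, and diamonds for FF sow 10 and RES sow 7. The HSD11B1 points of RES, 41.9 to 79.5, all lie below those of FF, 80.0 to 127, while the groups overlap for the other genes.

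NR3C1, the glucocorticoid receptor, was lower in RES GCs. Normalized counts ran from 275 in FF sow 10 over a median of 519 to 692 in FF sow 14, and from 180 in RES sow 3 over a median of 352 to 544 in RES sow 7. The groups overlapped, with 13 of 14 RES sows below the FF median, beside 5% of all genes with at least 13 of 14, and 5 of 13 FF sows above every RES sow. The log2 fold change was −0.50 (SE 0.14) and stayed called in all 27 fits without 1 library.

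Within the upper quality group the NR3C1 difference was −0.70 (SE 0.13) and within the lower −0.27 (SE 0.24). RES sow 7, the highest RES sow, is in the lower one, and FF sow 10, the lowest FF sow, is placed there by an uncertain quality entry. Between RES sows, NR3C1 had r = 0.72 (rho = 0.71) with the summed stroma markers and r = 0.68 (rho = 0.72) with the immune markers, neither called at an adjusted permutation p of 0.0693 over 160 gene and marker list pairs. Without RES sow 7 these r were 0.61 and 0.58. Between FF sows they were −0.48 (rho = −0.44) and 0.54 (rho = 0.31), so the sign for stroma was the opposite, and the difference between diets was not tested. The part of other cells in the NR3C1 difference was not tested. NR3C1 overlaps the RefSeq gene LOC110259145 on the opposite strand, and since the counting command sets no strand option, its reads could in part come from that gene.

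NR3C2, the mineralocorticoid receptor, was lower in RES GCs as well. Its levels, in normalized counts, ran from 42.4 in FF sow 4 over a median of 92.2 to 150 in FF sow 8, and from 30.3 in RES sow 12 over a median of 57.9 to 87.9 in RES sow 14. The FF median was above each of the 14 RES sows, as for 0.87% of all genes, and 7 of 13 FF sows lay above every RES sow. The log2 fold change was −0.64 (SE 0.20), an FF level 1.56 times that of RES.

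The NR3C2 difference was −0.67 (SE 0.31) within the upper quality group and −0.64 (SE 0.21) within the lower. It was called in 19 of the 27 fits without 1 library and was lost in 8, with log2 fold changes from −0.70 to −0.56 over all 27. The call was lost without FF sow 6, 8 or 14 and without RES sow 1, 6, 9, 11 or 12. Between FF sows, NR3C2 was lower where the summed GC markers were higher, with r = −0.82 (rho = −0.76, adjusted permutation p = 0.0443 over the 160 pairs). This r was −0.72 without the 2 libraries farthest from the median of that sum. Between RES sows r was −0.19 (rho = −0.07), and the difference between diets was not tested. VCAN is the largest part of that sum, with a mean of 50758 normalized counts in FF. Whether the relation holds for the other GC markers was not tested. A lncRNA, LOC110261980, lies on the opposite strand of NR3C2.

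FKBP5, which acts as a brake on the receptor, was at nearly the same level on both diets. It lies on the minus strand of chr7:31441764-31550704, with a lncRNA and a pseudogene on the opposite strand, and its normalized counts ran from 584 in FF sow 7 over a median of 778 to 1169 in FF sow 10, and from 658 in RES sow 5 over a median of 815 to 1216 in RES sow 4. The log2 fold change was −0.02 (SE 0.11), and over the 27 fits without 1 library it ran from −0.08 to 0.04. FKBP5 thus lay within about its standard error of 0 in every such fit. It was 0.13 (SE 0.15) within the upper quality group and −0.18 (SE 0.15) within the lower.

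TSC22D3, also known as GILZ, a leucine zipper protein through which glucocorticoids dampen inflammation, was the most variable of the 10 genes. It lies on the minus strand of chrX:88171325-88233583. Sows ranged in normalized count from 1.26 in FF sow 3 over a median of 11.6 to 92.4 in FF sow 10, and from 0 in RES sow 4 over a median of 31.5 to 92.9 in RES sow 7. A count of 0 allows up to 3 counts, or 2.55 normalized counts, in that library. The log2 fold change was 0.67 (SE 0.51), the only positive one of the 10, and was not called although 11 of 14 RES sows lay above the FF median. Without FF sow 10 it was 1.17 and without RES sow 7 it was 0.44, and within the quality groups 1.34 (SE 0.65) and 0.09 (SE 0.69).

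ZBTB16, a zinc finger repressor also called PLZF and a sensitive glucocorticoid target, rested on 1 sow. It lies on the plus strand of chr9:41639536-41839254, where RefSeq also places 2 lncRNAs on the same strand, so its reads could in part be theirs. Its normalized count ran from 13.9 in FF sow 3 over a median of 24.0 to 174 in FF sow 10, where the next FF value was 35.3 in FF sow 11. In RES it ran from 8.72 in RES sow 2 over a median of 28.0 to 48.9 in RES sow 12.

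The ZBTB16 log2 fold change was −0.41 (SE 0.32) with all sows and 0.14 without FF sow 10, a turn in direction. In the upper quality group it was 0.50 (SE 0.20), with medians of 25.7 in FF and 37.1 in RES. In the lower it was −1.37 (SE 0.52), where FF sow 10 is placed by a quality entry that may not be its own. Both values depend on that placement. Taken as the log2 ratio of group means, the lower group gave −1.32 with FF sow 10 and −0.31 without it. RES sows of the upper group held 24.0 to 48.9 normalized counts and those of the lower group 8.72 to 28.6. These ranges overlapped, and a difference between quality groups within RES was not tested.

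SGK1, a kinase that controls ion channels and transporters and is induced through both receptors, did not differ beyond the spread. It lies on the plus strand of chr1:29625786-29753619, and its normalized counts ran from 160 in FF sow 7 over a median of 240 to 277 in FF sow 10, and from 155 in RES sow 4 over a median of 220 to 304 in RES sow 14. The log2 fold change was −0.05 (SE 0.11), with −0.10 to −0.02 over the 27 fits without 1 library. The ranges lay almost on top of each other, and SGK1 had the smallest coefficients of variation of the set after HSD11B1 and, in RES, FKBP5.

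KLF9, a Krüppel-like transcription factor induced by glucocorticoids in many tissues, came closest to a call among the targets. The gene is on the minus strand of chr1:223723613-223747661. Its normalized count ran from 35.3 in FF sow 3 over a median of 49.2 to 76.0 in FF sow 10, and from 13.1 in RES sow 3 over a median of 27.8 to 90.9 in RES sow 7. Of the 14 RES sows 12 lay below the FF median and 8 below every FF sow, while RES sow 7 lay above every FF sow. The log2 fold change was −0.66 (SE 0.24), and it was −0.87 and called without RES sow 7.

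KLF9 in RES sows followed the markers of other cell types. With the summed pericyte and smooth muscle markers r was 0.87 (rho = 0.81, adjusted permutation p = 0.0443 over the 160 pairs), and with the stroma markers 0.79 (rho = 0.74, adjusted permutation p = 0.0443). Without the 2 libraries farthest from the median r was 0.73 and 0.67, and without RES sow 7 it was 0.65 and 0.70. Between FF sows r was 0.42 (rho = 0.38) and 0.49 (rho = 0.47), neither called. The pericyte and smooth muscle list had a median of 4411 in FF and 3127 in RES, and its part in the KLF9 difference was not tested. These 2 and the GC marker relation of NR3C2 were the 3 relations called among the 160, which were chosen after values had been seen.

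DUSP1, a phosphatase that switches off MAP kinases and answers to stress as well as to glucocorticoids, did not differ beyond the spread. The gene is on the plus strand of chr16:51457924-51461095, and its normalized counts ran from 23.1 in FF sow 6 over a median of 54.3 to 149 in FF sow 2, and from 23.0 in RES sow 4 over a median of 58.7 to 88.1 in RES sow 3. As many RES sows lay above the FF median as below it, 7 each, and the log2 fold change was −0.20 (SE 0.24), or −0.03 without FF sow 2, the highest FF sow. Between FF sows DUSP1 had r = 0.66 (rho = 0.70) with the sum of 12 immediate early genes, the genes that answer first to handling and stimulation, at adjusted permutation p = 0.154 over the 160 pairs, and r was 0.47 without the 2 farthest libraries. Between RES sows r was −0.10 (rho = 0.31). Between diets, 0 of the 9 tested immediate early genes were called by edgeR or DESeq2, with 0 at an unadjusted p under 0.05.

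**Figure D2:**
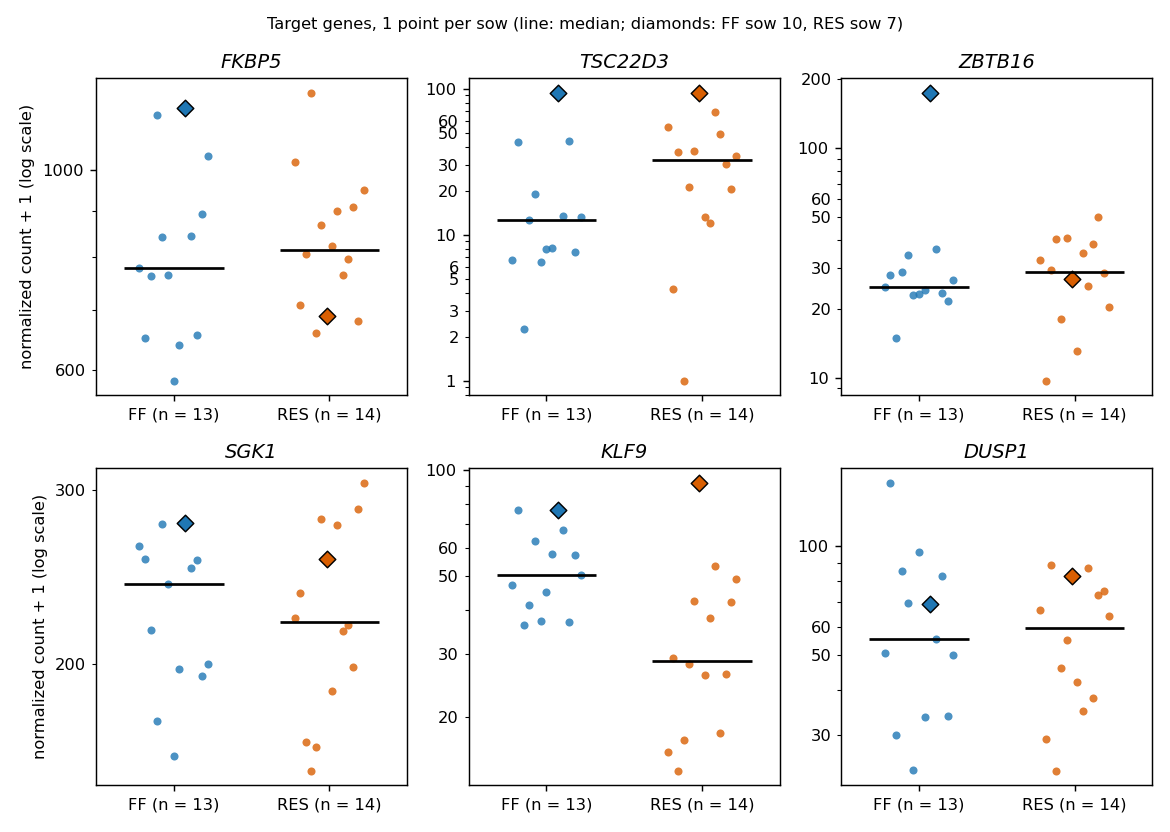
Normalized counts plus 1 (log y axes, a different range in each panel) of the 6 target genes, with 1 point per sow, 13 FF in blue and 14 RES in orange, lines at the medians, and diamonds for FF sow 10 and RES sow 7. FF sow 10 is the highest FF point for FKBP5, TSC22D3, ZBTB16, SGK1 and KLF9, and RES sow 7 the highest RES point for TSC22D3 and KLF9.

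FF sow 10 was the highest of the 13 FF sows for 5 of the 6 target genes, all but DUSP1, and the lowest for NR3C1. For SGK1 and KLF9 its lead over the next sow was small, 277 against 276 in FF sow 5 and 75.97 against 75.92 in FF sow 2, and for FKBP5 it was 1169 against 1149 in FF sow 4. Its lead was wide only for TSC22D3, 92.4 against 42.7 in FF sow 12, and for ZBTB16. Of 22 other glucocorticoid targets tested it was the highest for 4 (18.2%), PER1, CEBPD, CRISPLD2 and MYC, near the 20.5% of all genes. RES sow 4 was the lowest of the RES sows for 4 of the 10 genes, HSD11B2, TSC22D3, SGK1 and DUSP1, and the highest for FKBP5. Its share over all genes was not counted, so nothing is read from these counts.

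Levels can be compared between genes only per length, and are given per kb of RefSeq exon, although the counts were made on Ensembl gene models. KLF9 is left out because its RefSeq model holds coding bases only. In FF, FKBP5 had the highest median, 158 normalized counts per kb, and its lowest sow, at 118, lay above the highest sow of every other gene. NR3C1 (62.0), SGK1 (60.9) and HSD11B1 (51.5) followed, then DUSP1 (25.6), HSD11B2 (23.1) and NR3C2 (13.6), and ZBTB16 (2.97) and TSC22D3 (2.58) were lowest. Apart from FKBP5, each gene overlapped the next in this order.

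The order in RES was the same but for 2 swaps of neighbours. SGK1 (55.7) stood above NR3C1 (42), and TSC22D3 (7.05) above ZBTB16 (3.47). HSD11B1 had 38.3 normalized counts per kb in RES and HSD11B2 14.3. NR3C2 had 8.57, so that on either diet the transcript of the glucocorticoid receptor was more abundant per length than that of the mineralocorticoid receptor.

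Correlations with HSD11B1 over the sows of 1 diet were part of how the genes were chosen and are given as a description. In FF, Pearson's r was below 0 for 7 of the 9 other genes, with the lowest value for FKBP5 (−0.47) and positive values for HSD11B2 (0.21) and DUSP1 (0.20). In RES it was below 0 for 9 of 9, with the lowest values for KLF9 and DUSP1 (both −0.43), SGK1 (−0.38) and TSC22D3 (−0.36). All r lay between −0.47 and 0.21, and counting error makes up 46.2% (FF) and 60.9% (RES) of the variance of HSD11B1.

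All genes of a library share its depth and scaling. Among all tested genes, 4.88% had a smaller r with HSD11B1 than FKBP5 in FF, 3.15% a smaller r than KLF9 and 3.24% a smaller r than DUSP1 in RES. Without the 2 libraries farthest from the HSD11B1 median, r turned for HSD11B2 and DUSP1 in FF, to −0.22 and −0.02, and for NR3C1 and FKBP5 in RES, to 0.05 and 0.17. Of the targets in RES, TSC22D3 went from −0.36 to −0.61 and KLF9 from −0.43 to −0.56, while SGK1 went from −0.38 to −0.16. FKBP5 in RES split by quality group, with r = 0.56 over the 7 upper and −0.66 over the 7 lower sows.

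**Figure D3:**
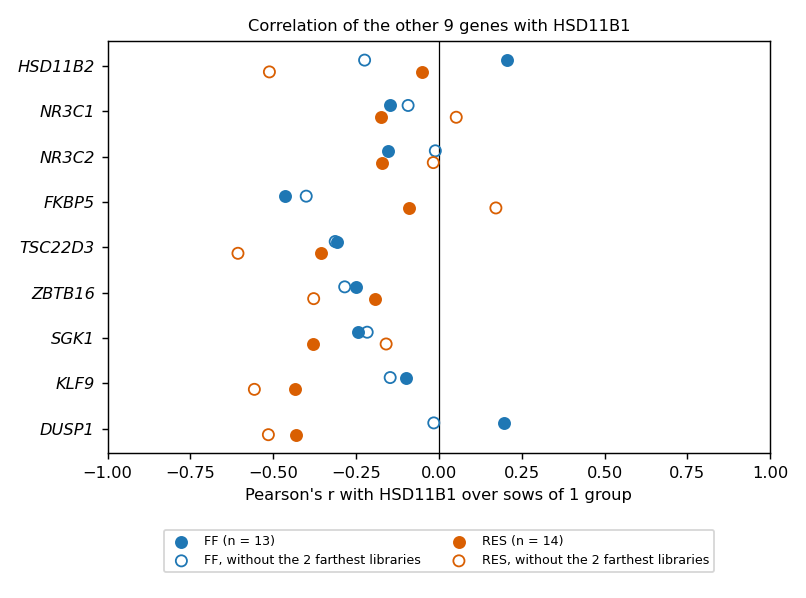
Pearson's r (x axis, no unit, from −1 to 1) of each of the other 9 genes (y axis) with HSD11B1 over 13 FF sows (blue) and 14 RES sows (orange). Filled points use all sows of a diet and open points leave out the 2 farthest from the median of HSD11B1, which moves HSD11B2 from 0.21 to −0.22 in FF and from −0.05 to −0.51 in RES.

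Genes were also ranked by how closely they followed HSD11B1. On log2 normalized counts centred on each diet's mean, over 27 libraries and 9512 genes with a mean normalized count of at least 20, the most like were TIFA (r = 0.63), NUB1 (0.60), ARL3 (0.57), PRMT6 (0.56) and INTS14 (0.55). Their own log2 fold changes between diets were small, from −0.07 for NUB1 to 0.24 for TIFA. The least like were TNIK (−0.60), SYNJ2 (−0.59) and ARSJ (−0.57). Within the set the ranks ran from 3590 of 9512 for HSD11B2 (r = 0.10) to 9276 for TSC22D3 (−0.37), and FKBP5, KLF9, SGK1 and TSC22D3 held ranks from 9048 on.

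Pairs among the 9 genes other than HSD11B1 were tested within each diet by Pearson's r with 100000 permutations, two-sided and adjusted over the 72 pairs of both groups. Of 36 pairs, 0 were called in FF and 0 in RES, with 6 and 7 at an unadjusted p under 0.05. An absolute r of at least 0.5 was reached by 19.4% of pairs in FF and 22.2% in RES, beside 18.7% and 18.3% of all gene pairs in the same libraries. The share of such pairs in the set was thus close to that among all tested genes.

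The largest r in FF belonged to TSC22D3 and ZBTB16, 0.86 (rho = 0.74, permutation p = 0.0165, adjusted 0.23), and it was 0.27 without FF sow 10. NR3C1 with ZBTB16 had −0.62 (rho = −0.18, permutation p = 0.0429, adjusted 0.237) and 0.04 without that sow. FKBP5 with ZBTB16 had 0.57 (rho = 0.50, permutation p = 0.0158, adjusted 0.23) and 0.30 without it. On the log2 scale TSC22D3 with ZBTB16 had 0.74 and was called (adjusted permutation p = 0.0468).

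In RES the largest r was that of TSC22D3 with DUSP1, 0.69 (rho = 0.69, permutation p = 0.00524, adjusted 0.189). It was 0.67 without RES sow 7, 0.57 without the 2 farthest libraries and 0.81 on the log2 scale, where it was called (adjusted permutation p = 0.0137). In FF the same pair had 0.43, and 0.74 without FF sow 10 (permutation p = 0.00981, adjusted 0.266). TSC22D3 with KLF9 had 0.62 in RES (rho = 0.27) and NR3C1 with KLF9 0.60 (rho = 0.49), and these were 0.20 and 0.35 without RES sow 7.

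FKBP5 and TSC22D3, targets often read together as signs of receptor activity, had r = 0.34 in FF (−0.26 without FF sow 10) and −0.27 in RES (−0.11 without RES sow 7), with adjusted permutation p of 0.545 and 0.613. The receptors NR3C1 and NR3C2 had r = 0.13 in FF, or 0.47 without FF sow 10, and 0.56 in RES (permutation p = 0.0351, adjusted 0.23), or 0.47 without RES sow 7. The difference between the diets was not tested.

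Other glucocorticoid targets were taken from a list of 30 genes written from textbook knowledge. This list and those that follow were drawn up with earlier results of these data known, so their counts and p-values are not independent evidence of a direction. Of these, 22 were tested and 5 were called, all lower in RES, beside 14.1% of all genes called in either direction and 5.85% called lower. The median log2 fold change of the 22 was −0.31, beside −0.02 over all genes, and 17 of 22 were below 0. The metabolic targets PCK1 and TAT, typical of liver, had 0 counts in 27 and 24 of the 27 libraries.

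FBXO32, a ubiquitin ligase of muscle wasting, was lower in RES by −1.17 on the log2 scale (SE 0.39, edgeR adjusted p = 0.0437), with normalized counts of 52.8 to 515 (median 119) in FF and 17.1 to 345 (median 47.9) in RES. ANGPTL4, an inhibitor of lipoprotein lipase, had −0.80 (SE 0.25, edgeR adjusted p = 0.0296), and BCL6, a transcriptional repressor, −0.75 (SE 0.22, edgeR adjusted p = 0.0202). NFKBIA, the inhibitor of NF-κB, had −0.57 (SE 0.16, edgeR adjusted p = 0.0197), and SESN1, a stress-induced regulator of growth signalling, −0.55 (SE 0.17, edgeR adjusted p = 0.0263).

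The FBXO32 call was lost in 16 of the 27 fits without 1 library (without FF sow 3, 4, 6, 8, 13 or 14 or RES sow 1, 3, 5, 6 or 8 to 13) and without the count filter. ANGPTL4 lost its call in 5 of the 27 fits (without FF sow 2, 7 or 12 or RES sow 1 or 9), SESN1 in 2 (without FF sow 6 or 14), and BCL6 and NFKBIA in 0, although NFKBIA, like FBXO32, was not called within the upper quality group. All 5 also answer to signals other than glucocorticoids. The groups overlapped for each, with 11 to 13 of 14 RES sows below the FF median. PER1, a clock gene with a strong glucocorticoid response element, had a log2 fold change of 0.04 (SE 0.23), with normalized counts of 12.1 to 65.8 (median 30.8) in FF and 17.03 to 74.3 (median 33.6) in RES. The number of targets called was 3 without FF sow 6, RES sow 1 or RES sow 9 and 8 without FF sow 10 or RES sow 4. It was 6 within the upper quality group, with MYC higher, beside 17.8% of all genes called there, and 0 within the lower, where 1 gene of all 11385 was called.

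Of the chaperones that fold the receptor and hold it ready for hormone, 5 of 14 were called higher in RES GCs and 0 lower. Of all genes, 8.28% were called higher. The log2 fold change was above 0 for 14 of 14 chaperones, with a median of 0.30, beside 5389 of all 11385 genes. HSP90AA1, the inducible HSP90, ran from 13409 over a median of 16610 to 21995 normalized counts in FF and from 14849 over a median of 25404 to 39814 in RES, with a difference of 0.56 on the log2 scale (SE 0.12, edgeR adjusted p = 0.00311). STIP1, which links HSP70 to HSP90, had 0.45 (SE 0.12, edgeR adjusted p = 0.0127), PPID 0.43 (SE 0.11, edgeR adjusted p = 0.00934) and PTGES3, the co-chaperone p23, 0.36 (SE 0.10, edgeR adjusted p = 0.0165).

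HSP90AB1, the constitutive HSP90, lay above the FF median in all 14 RES sows, as did PTGES3, and had 0.30 (SE 0.07, edgeR adjusted p = 0.00333). Within the quality groups HSP90AA1 had 0.83 (SE 0.14) in the upper and 0.25 (SE 0.17) in the lower. Some chaperones lay near 0 in the lower group, with FKBP4 at −0.02 (SE 0.22), STUB1 at −0.002 (SE 0.18) and DNAJA1 at 0.0003 (SE 0.18). In the upper group these had 0.56, 0.31 and 0.69. STIP1 had 0.53 (SE 0.16) in the upper and 0.38 (SE 0.18) in the lower. These chaperones serve many client proteins besides the receptors. Among 13 coregulators of the receptors, such as NCOA1, NCOR1 and EP300, 0 were called by edgeR or DESeq2, with 1 at an unadjusted p under 0.05.

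HSD11B1 works as a reductase only while H6PD supplies it with NADPH inside the endoplasmic reticulum. H6PD had normalized counts of 56.2 to 176 (median 93.2) in FF and 77.9 to 161 (median 108) in RES, and its log2 fold change was 0.16 (SE 0.15). Of the 5 genes of that supply, 0 were called by edgeR, 1 had an unadjusted p under 0.05 and DESeq2 called 1, SLC37A2.

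Of 14 genes for corticosteroid synthesis, transport and clearance, CYP11B1, HSD3B1, HSD3B2, SRD5A3 and ABCB1 had no matched identifier and were not analysed here, and 4 stayed below the mean count of 5. The other 5 were tested and 0 called by edgeR, with 3 at an unadjusted p under 0.05 and 2, CYP17A1 and AKR1D1, called by DESeq2. CYP17A1, which is also a theca marker, had −1.11 (SE 0.39) and AKR1D1, which reduces cortisol and other steroids, 0.77 (SE 0.27). CYP21A2, needed to make cortisol, was at 0 in 12 of 13 FF and 7 of 14 RES sows, and SERPINA6, the cortisol-binding globulin, at 0 in 11 of 13 and 12 of 14.

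Downstream of NR3C2 in salt-transporting epithelia, 5 of 9 listed transport genes were tested and 1 was called, lower in RES, beside 14.1% of all genes called and 5.85% called lower. ATP1B1, the beta subunit of the sodium pump, was lower in RES, with normalized counts of 229 to 1562 (median 571) in FF and 132 to 800 (median 235) in RES, a difference of −1.39 on the log2 scale (SE 0.30, edgeR adjusted p = 0.00291). The sodium channel subunits SCNN1A, SCNN1B and SCNN1G, classic targets of aldosterone, stayed below the mean count of 5.

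**Figure D4:**
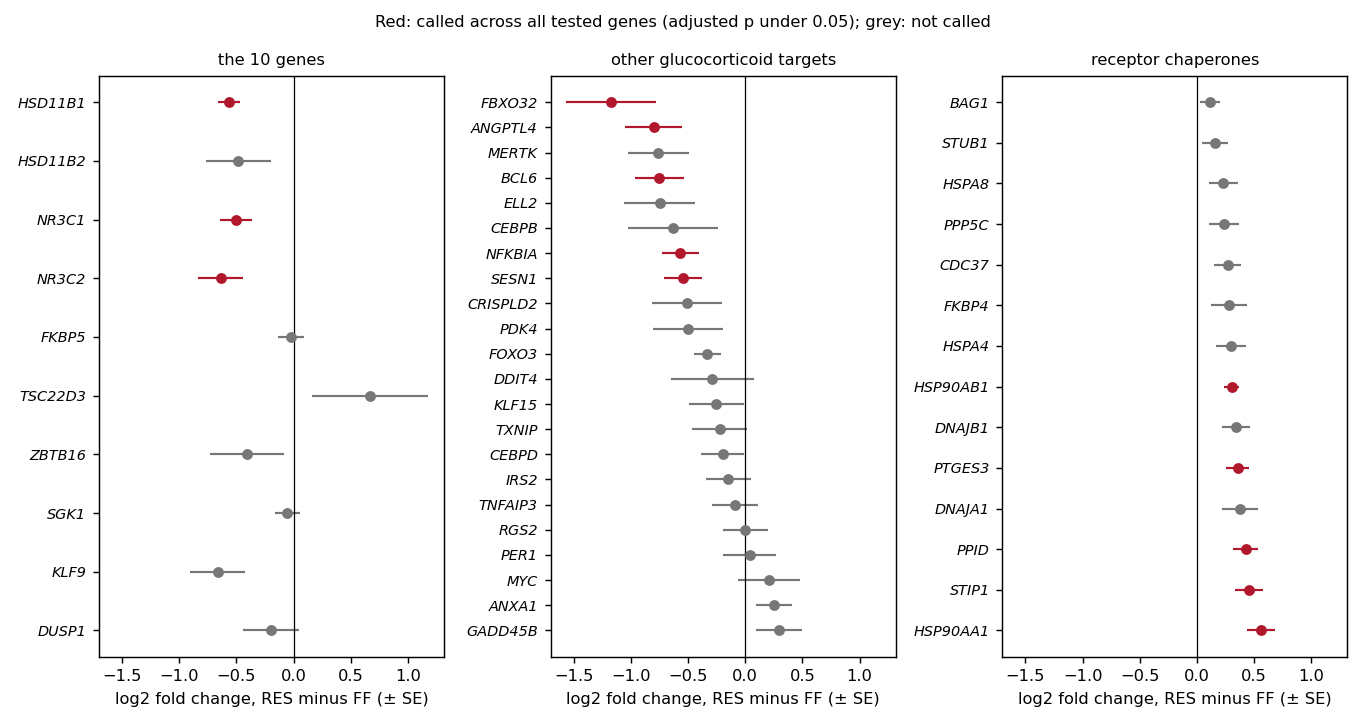
Log2 fold change, RES minus FF (x axis), with its standard error as bars, for the 10 genes, 22 other glucocorticoid targets and 14 receptor chaperones (y axis), in red where called over all 11385 genes and in grey otherwise. The 5 called targets lie between −1.17 and −0.55, and all 14 chaperones lie above 0.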

How the data were processed

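Counts were deposited per gene and sow. Per the file headers and methods, the authors cleaned the reads, aligned them with HISAT2 2.2.1 to Sscrofa11.1, removed PCR copies with UMI-tools 1.1.4 and counted read pairs on exons of Ensembl release 110 genes with featureCounts 1.6.2. The submitters' processing notes give these versions. The libraries were made with a strand-marking kit, but no strand option was set, so overlapping genes on opposite strands are uncertain. The deposited counts are raw.

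The 10 genes and all gene lists were chosen with earlier results of these data known. Identifiers were named through a table of pig symbols, and of those with a mean count of at least 5 (17467 of 35670), 11385 named genes were tested after leaving out 37 small RNAs. The fit used edgeR 4.0.16 in R 4.3.3 (TMM, quasi-likelihood test, Benjamini-Hochberg over all genes, no covariates, 13 FF and 14 RES). Standard errors were taken as log2 fold change over the root of the F statistic. Size factors came from DESeq2 1.42.0 over the 17467 identifiers. For correlations and figures, scipy 1.17.1, numpy 2.4.6, pandas 2.3.3 and matplotlib 3.10.9 ran under Python 3.11.15. Both kinds of test were tested on simulated data.

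Genes were named by rule: all 10 genes, the called genes of each other list (at most 5 in each direction), defining markers, PER1 and H6PD, the 5 genes most and 3 least like HSD11B1, the 3 pairs with the largest absolute r in each diet, and FKBP5 with TSC22D3. CYP17A1, AKR1D1, SLC37A2, PCK1, TAT, CYP21A2, SERPINA6, the sodium channel subunits, the targets highest in FF sow 10, MYC in the upper quality group, the pairs of TSC22D3 with DUSP1 in FF and NR3C1 with NR3C2, and the marker relations were added after their values were seen. Positions and sequences are from RefSeq on Sscrofa11.1. The gene fit was repeated with each library left out, with the sow number as a replicate block, with the quality group as a covariate or fitted apart, with filterByExpr or without a count filter, on unnamed identifiers too, with size factors in place of TMM, and by the Wald test of DESeq2, and correlations on the log2 scale, with Spearman's rho, TMM-scaled counts, 2 libraries left out and residuals within quality groups. Of the other lists, MT2A, GLUL, MAOA, FOXL2, VWF and DAZL also had no matched identifier and were not analysed here.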

Additional observations from a re-analysis of the deposited data

How the results depend on the processing

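Of the 3 calls among the 10 genes, HSD11B1 and NR3C1 were kept in every setting except within the lower quality group, where 0 of the 10 were called. NR3C2 was also lost within the upper quality group and under the replicate block. KLF9 was called by DESeq2, under the block and without RES sow 7 or RES sow 10. Leaving out 1 library gave 1180 to 2350 called genes, 2 to 4 of the 10 genes, 3 to 8 other targets and 6 to 11 genes of the chaperone, coregulator, cofactor, steroid and mineralocorticoid lists (main counts 1609, 3, 5 and 6). Within the lower quality group 1 gene in all was called, 0 other targets and 0 of these lists, and DESeq2 called 10 of these lists and the upper quality group 12. On the log2 scale 2 pairs were called in FF (TSC22D3 with ZBTB16 and ZBTB16 with KLF9) and 1 in RES. On the linear scale, where 0 pairs were called, leaving out FF sow 10 or RES sow 7 (chosen after seeing the data) also gave 0 in either diet, and the log2 scale was not rerun without these sows.

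The sow numbers are shared between the diets but do not pair the sows: over 13 pairs the correlation of deviations ran from −0.22 to 0.30 (median 0.01), and 0 of the sows correlated best with their own number. With the numbers as a replicate block, 1084 genes were called, 3 of the 10 genes (HSD11B1, NR3C1 and KLF9), 3 other targets (BCL6 and NFKBIA lost their calls) and 4 genes of the lists (STIP1 and PTGES3 lost theirs).

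HSD11B1 rests on 41 to 127 read pairs per library, and counting error makes up 46.2% (FF) and 60.9% (RES) of its variance. For TSC22D3, on 0 to 93 read pairs, these shares are 3.28% and 4.74%. With 1 library per sow, differences between sows and between library preparations cannot be told apart.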
